A study of Homo sapiens with 12 samples.

Results

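The genes described here are 9 textbook targets of the transcription factor p53, CDKN1A, MDM2, BTG2, DDB2, AEN, GDF15, SESN1, ZMAT3 and TP53INP1, chosen by name out of 67053 genes with a gene identifier in the poly-A tables. They were chosen with earlier results of these data known. Counts of members set beside shares of all genes are therefore descriptions and no independent support. A gene's level is the sum of FPKM, fragments scaled to transcript length and library size, over the transcripts of its identifier. All 9 genes reached an FPKM of at least 1 in at least 2 of the 6 poly-A libraries and were tested, as were 15183 genes in all.

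HEK293T, a human embryonic kidney line that expresses the SV40 large T antigen, received 2 µg of a GFP reporter plasmid per well, and RNA was taken 48 h later. The 3 groups differ in the 3′ untranslated region of that reporter, which carried no added trigger (GFP, the control), a trigger from BCL2L11, or one from TRIM9. A trigger is an RNA stretch that pairs extensively with a microRNA (miRNA) and leads to its loss, and the study asked about loss of miR-218 with the TRIM9 trigger, and of miR-221 and miR-222 with the other. All groups, the control included, therefore carried large T antigen, a plasmid and a transfection reagent, either PEI or lipofectamine, and the reagent used for a given sample is not given in the sources used here. Each group had 2 poly-A and 2 small RNA libraries, stated to be biological replicates. Beyond that statement nothing ties them to separate cultures, so a p-value measures only the spread between these libraries.

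p53 is a stress-activated transcription factor. MDM2, itself a target, marks p53 for degradation and closes a feedback loop, while CDKN1A (p21) and BTG2 slow the cell cycle, DDB2 recognises ultraviolet damage, and AEN and TP53INP1 act in apoptosis. Large T antigen binds p53 and blocks much of its activity, so target levels in HEK293T are those of cells in which p53 is bound by a viral protein.

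p53 binds pairs of 10-base elements, each with a C and a G in its core. The 5 members below held a match to the palindromic p53 consensus in the RefSeq window from 250 bases before to 50 bases after a start site, searched as 2 elements with no spacer and at most 3 mismatches of 20. The sites are shown as a description of these genes. The members were chosen as textbook p53 targets, so a raised share with a match is no independent result. Capitals mark the 4-base core of each element, and each line gives the strand on which the gene is read (GRCh38.p14).
AEN, chr15:88621306-88621325, plus strand: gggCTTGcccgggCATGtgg
DDB2, chr11:47214969-47214988, plus strand: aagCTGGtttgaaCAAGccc
GDF15, chr19:18386186-18386205, plus strand: agcCATGcccgggCAAGaac
MDM2, chr12:68808923-68808942, plus strand: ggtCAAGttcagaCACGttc
SESN1, chr6:109009018-109009037, minus strand: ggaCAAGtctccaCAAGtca
The DDB2 match had 1 mismatch, those of AEN and MDM2 had 2, and those of GDF15 and SESN1 had 3. Their first bases lay at -34 (AEN), -5 (DDB2), 29 (GDF15), -94 (MDM2) and -49 (SESN1) relative to the start site. Of the 8 members in the window table, 5 held such a match, against 1.37% of all 27305 symbols. With at most 2 mismatches the count was 3 of 8, against 0.359% of symbols. CDKN1A, BTG2 and ZMAT3 held no match in these windows, which says only that these letters are not in them, and TP53INP1 was not in the table. The mismatch limit and the search without a spacer were set after match counts had been seen.

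Read totals of the poly-A libraries are not in these tables. The FPKM per unit of coverage, a constant within a library that falls as its sequenced total rises, was 0.187 to 0.243, and each library listed 83584 to 110534 of 250719 transcripts above 0. GFP replicate 1 listed the fewest, 83584, and the next lowest, TRIM9 replicate 1, listed 99690. Every difference from GFP within the first replicates rests on that GFP library. Of 6 genes that mark HEK293 cells, 5 reached an FPKM of 1, and their summed FPKM was 62.0 to 75.1 in replicate 1 of each group and 145 to 169 in replicate 2. Markers of fibroblasts (3 of 8 genes at an FPKM of 1 in some library, summed 1.72 to 7.82), blood cells (2 of 7, summed 4.66 to 10.6) and epithelium (2 of 5, summed 1.51 to 2.26) were low, and PTPRC, CD3E and HBB were at 0 throughout. The first replicates of all groups (title numbers 1 to 3) are called library set 1 below and the second ones (4 to 6) library set 2. The labels state neither a batch nor a pairing for these sets. They stood apart across the transcriptome, with 32.9% of tested genes differing between sets at an adjusted p under 0.05 (limma). In bulk RNA, fewer cells with a transcript and less of it per cell cannot be told apart.

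Values of a gene in a group are given for replicate 1 and then replicate 2 throughout. With GFP the members covered a wide range of levels per length. AEN was highest, with an FPKM of 47.8 ± 1.07 (SD, n = 2), followed by CDKN1A with 40.9 ± 2.7. DDB2 (27.6 ± 4.58) and MDM2 (24.2 ± 6.52) overlapped, as did SESN1 (16.6 ± 1.84) and BTG2 (15.4 ± 0.482). GDF15 followed with 11.2 ± 0.226. ZMAT3 (3.71 ± 1.69) and TP53INP1 (3.57 ± 1.35) were lowest and overlapped. At every other step of this order the GFP libraries of the neighbours did not overlap. Averaged over the 6 libraries, AEN and CDKN1A stood at percentiles 88.5 and 88.2 of tested genes and TP53INP1 at percentile 25.9.

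**Figure D1:**
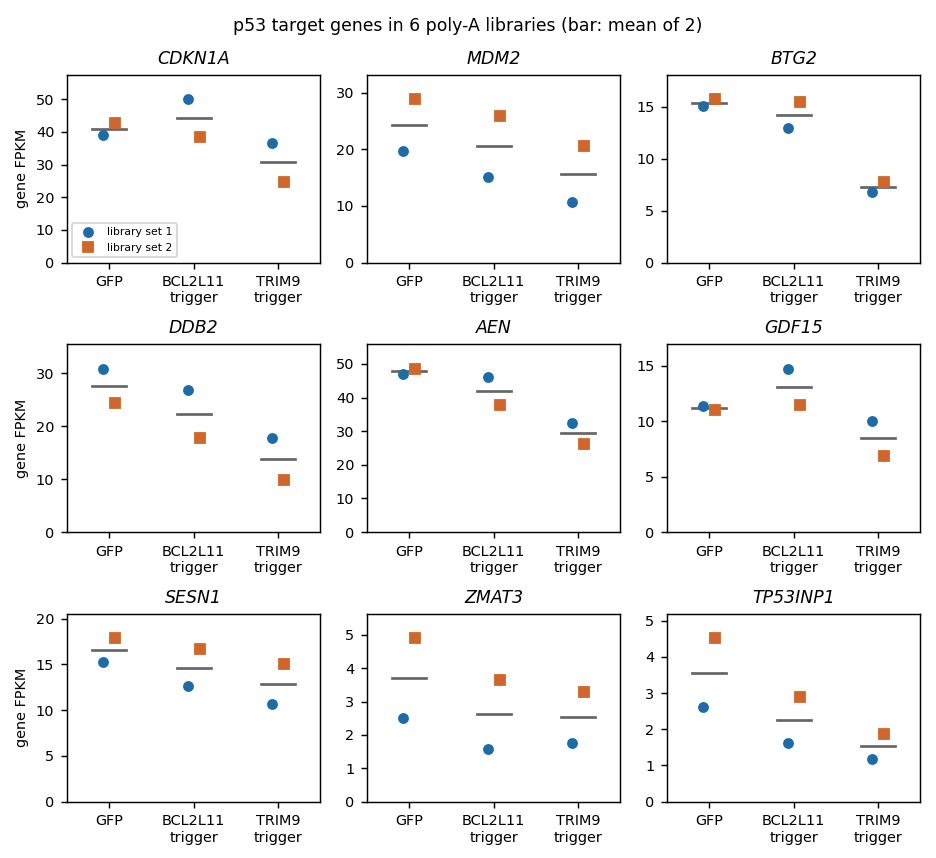
Gene FPKM (vertical axes, each from 0) of the 9 p53 targets in the GFP, BCL2L11 trigger and TRIM9 trigger libraries, with circles for library set 1, squares for set 2 and bars for the mean of 2. In 7 panels, all but MDM2 and ZMAT3, both TRIM9 trigger libraries sit below both GFP libraries.

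Every member was lower with the TRIM9 trigger than with GFP, in the fitted difference and within each library set, but none passed the test. Over all tested genes 55.8% of fitted differences were below 0. The differences ran from -0.99 (DDB2 and BTG2) to -0.36 (SESN1) in log2(FPKM + 1), with a median of -0.64 against -0.04 over all tested genes. At an adjusted p under 0.05, 0 of 9 members were called, and over all genes 0.00659% were. At an unadjusted p under 0.05 (limma), BTG2, DDB2 and AEN were lower, 3 of 9, against 0.843% of all genes. When library set was added to the limma fit, 0 of 9 were called (0.0395% of genes), with adjusted p from 0.515 to 0.774. At an unadjusted p under 0.05 in that limma fit, BTG2, DDB2, TP53INP1, AEN and MDM2 were lower, 5 of 9, against 4.77% of genes.

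The cell cycle brakes differed most in their evenness. BTG2, an antiproliferative factor of the BTG family (chromosome 1, 203305491 to 203309602), had an FPKM of 15.05 and 15.7 with GFP, 12.9 and 15.4 with the BCL2L11 trigger, and 6.82 and 7.75 with the TRIM9 trigger. Both TRIM9 trigger libraries lay below all 4 others. Its TRIM9 difference was -0.99 (SE 0.28, limma p 0.0102, adjusted p 0.9999), ranked 43rd of all genes by p, and was -1.04 in set 1 and -0.93 in set 2. Leaving out GFP replicate 2 from the fit with a set term, a check added after the data were seen that has 1 residual degree of freedom, gave -1.06 with an adjusted p of 0.0391, in a fit that called 742 genes in place of 6. BTG2 passed in no other setting.

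CDKN1A, the cyclin-dependent kinase inhibitor p21 (chromosome 6, 36676460 to 36687337), had 39.0 and 42.9 with GFP, 50.04 and 38.4 with the BCL2L11 trigger, and 36.6 and 24.8 with the TRIM9 trigger. The TRIM9 trigger libraries were the lowest pair, but the first of them lay close to the GFP libraries, and after rescaling FPKM by TMM factors the 2 groups overlapped. The difference was -0.43 (SE 0.32, limma adjusted p 0.9999), made of -0.09 in set 1 and -0.77 in set 2. In the second TRIM9 library the transcript ENST00000244741.10, which led in the other 5, held 35.4% of the gene's FPKM, and a second transcript, ENST00000405375.5, held more (14.7 against 8.77 FPKM).

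DDB2, the damage-recognition factor of nucleotide excision repair with the 1-mismatch site shown above (chromosome 11, 47214465 to 47239217), had 30.9 and 24.4 with GFP, 26.8 and 17.8 with the BCL2L11 trigger, and 17.8 and 9.92 with the TRIM9 trigger. It was higher in set 1 of every group, and both TRIM9 trigger libraries lay below both GFP libraries. The difference was -0.99 (SE 0.38, limma p 0.0353, adjusted p 0.9999), -0.76 in set 1 and -1.22 in set 2. The gene has 16 listed transcripts, and its leading one, ENST00000378601.7, held 21.61 to 44.45% of its FPKM over the libraries.

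Among the apoptosis members, AEN, a p53-induced nuclease (chromosome 15, 88621337 to 88632281), had 47.1 and 48.6 with GFP, 46.0 and 37.8 with the BCL2L11 trigger, and 32.4 and 26.3 with the TRIM9 trigger. The TRIM9 pair lay below all 4 other libraries. Its TRIM9 difference was -0.69 (SE 0.29, limma p 0.0478, adjusted p 0.9999). TP53INP1, a stress-induced partner of p53, had 2.61 and 4.52 with GFP, 1.62 and 2.90 with the BCL2L11 trigger, and 1.19 and 1.86 with the TRIM9 trigger. Within each set its order was GFP, BCL2L11, TRIM9, from high to low, and the TRIM9 difference was -0.84 (SE 0.37, limma adjusted p 0.9999). Which of its 2 transcripts was listed varied between libraries, from 0 to 100% for ENST00000448464.6.

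MDM2 (chromosome 12, 68808177 to 68850686) had 19.6 and 28.9 with GFP, 15.1 and 25.9 with the BCL2L11 trigger, and 10.8 and 20.5 with the TRIM9 trigger. The groups overlapped because set 2 was higher in each, while within each set the TRIM9 library was the lowest, by -0.81 in set 1 and -0.47 in set 2 (fitted -0.64, SE 0.43, limma adjusted p 0.9999). ZMAT3, a zinc finger RNA-binding protein, had 2.51 and 4.90 with GFP, 1.58 and 3.65 with the BCL2L11 trigger, and 1.77 and 3.28 with the TRIM9 trigger. It also overlapped between groups, with a TRIM9 difference of -0.40 (SE 0.44).

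GDF15, a secreted stress cytokine, had 11.3 and 11.03 with GFP, 14.7 and 11.4 with the BCL2L11 trigger, and 9.998 and 6.89 with the TRIM9 trigger. SESN1, a sestrin that restrains growth signalling and limits oxidants, had 15.3 and 17.9 with GFP, 12.6 and 16.7 with the BCL2L11 trigger, and 10.7 and 14.99 with the TRIM9 trigger. In both genes the TRIM9 trigger libraries lay below the GFP libraries, by -0.39 (SE 0.32) and -0.36 (SE 0.32), and with TMM factors those of GDF15 overlapped.

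Counted over the members, both TRIM9 trigger libraries lay below both GFP libraries in 7 of 9, against 11.2% of all tested genes. Since the members were chosen with earlier results of these data known, this count and those below describe them and test nothing. With TMM factors the count was 6 of 9 (8.42% of genes), as CDKN1A and GDF15 came to overlap and MDM2 no longer did. All 9 were lower in both library sets, against 30.5% of genes (16.1% were higher in both), and also with TMM factors (21.2%). TMM moved the log2 comparison by 0.07, and the median of the members became -0.58 against 0.02 over all genes. In the authors' deposited table for TRIM9, 6 members were listed, all lower, from a log2 fold change of -1.58 (DDB2) to -0.36 (SESN1), and the lowest q-value among them was 0.999886. The share of lower genes over the 6131 genes of that table was not computed. It covers the same comparison in this series and is no separate evidence.

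**Figure D2:**
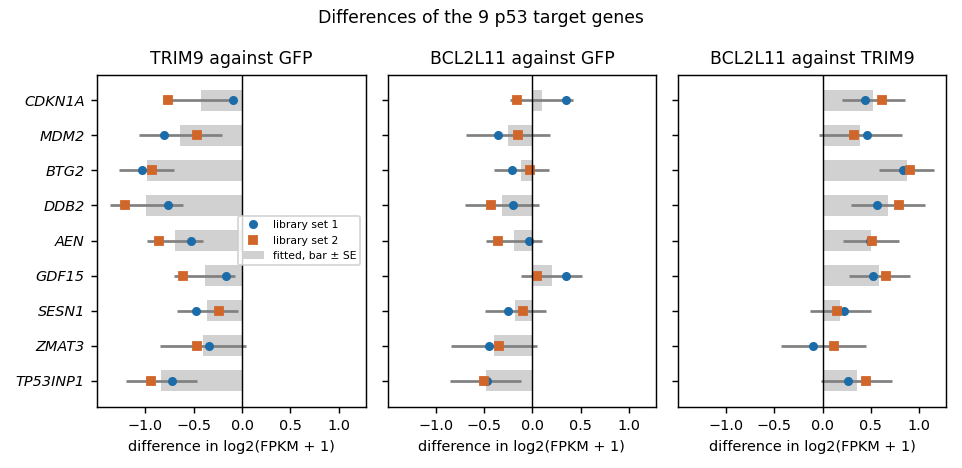
Difference in log2(FPKM + 1) of each p53 target (horizontal axes), with grey bars and whiskers for the limma estimate ± SE, circles for library set 1 and squares for set 2. All 18 points of the TRIM9 panel lie left of 0, while the BCL2L11 panel has points on both sides.

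With the BCL2L11 trigger the members stayed nearer to GFP. The differences ran from -0.48 (TP53INP1, SE 0.37) to 0.20 (GDF15, SE 0.32), 7 below 0 (62.7% of all genes were) and 2 above, with a median of -0.19 against -0.08 over all genes. At an adjusted p under 0.05 (limma), 0 of 9 were called, against 0.00659% of genes, and 0 of 9 had an unadjusted p under 0.05, against 0.547%. With a set term in the limma fit, TP53INP1 was lower at an unadjusted p of 0.0325, 1 of 9, against 2.72% of genes lower at an unadjusted p under 0.05. AEN was the single member whose trigger libraries lay below both GFP libraries (12.3% of genes), and with TMM factors, which moved this comparison by 0.10, 0 of 9 did (7.11%). GDF15 was the single member whose trigger libraries lay above (4.44% of genes), and with TMM 0 of 9 did (8.41%). CDKN1A was higher in set 1 and lower in set 2, with a fitted difference of 0.10 (SE 0.32). The authors' deposited table for BCL2L11 listed 4 members, with log2 fold changes from -0.84 (DDB2) to 0.09 (CDKN1A) and no q-value below 0.999982. These differences and those of TRIM9 share the GFP libraries.

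Set directly against each other, the members were higher with the BCL2L11 trigger than with the TRIM9 trigger in all 9 fitted differences, from 0.01 (ZMAT3, SE 0.44) to 0.87 (BTG2, SE 0.28), with a median of 0.50 against -0.04 over all genes, of which 58.6% were below 0. At an adjusted p under 0.05 (limma), 0 of 9 were called, against 0.0132% of genes. BTG2 alone had an unadjusted p under 0.05 (limma, p 0.0180), 1 of 9 against 0.645% of genes. With a set term in the limma fit, BTG2, DDB2, GDF15 and AEN were higher at an unadjusted p under 0.05, 4 of 9, against 1.59% of genes. The libraries did not overlap for BTG2, DDB2, GDF15, CDKN1A and AEN, 5 of 9, against 5.72% of genes, and with TMM for BTG2, AEN and GDF15, 3 of 9 (6.54%). Within both library sets 8 of 9 were higher, all but ZMAT3, against 22.6% of genes. This contrast reuses the libraries of the comparisons with GFP and is no separate evidence. With both triggers pooled against GFP all 9 differences were below 0 (60.1% of genes were), with a median of -0.44 against -0.06 over all genes, and 0 of 9 were called (limma, 0.0132% of genes). With a set term 6 of 9, all but CDKN1A, GDF15 and SESN1, were lower at an unadjusted p under 0.05 (limma), against 4.82% of genes.

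Between the library sets, with the group in the fit, 4 of 9 members differed at an adjusted p under 0.05 (limma), against 32.9% of genes. MDM2 (0.72, adjusted p 0.0168), ZMAT3 (0.74, adjusted p 0.0152) and TP53INP1 (0.52, adjusted p 0.0375) were higher in set 2, and DDB2 (-0.56, adjusted p 0.0371) was lower. TP53INP1 no longer passed with TMM factors (limma, adjusted p 0.0693). Leaving out any BCL2L11 or TRIM9 library ended all 4 calls, and leaving out either GFP library raised the count to 7 of 9. Over all genes, the fits without a library called from 1265 to 8178 genes, against 4991 with all libraries. The changed member counts are therefore not read as particular to the members. The summed HEK293 markers, among which IRS4 moved most, also differed between the sets, as given above. Their part in these differences was not tested.

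The rest of the pathway was read from lists of named genes. Of 17 tested further targets in arrest and repair, 14 were below GFP with the TRIM9 trigger, where 55.8% of all tested genes were, and 0 were called at an adjusted p under 0.05 (limma), against 0.00659% of genes. Their median was -0.26, and 7 of 17 did not overlap with GFP on the lower side, against 11.2% of genes. PLK2, a stress-responsive polo-like kinase, had 4.80 and 5.90 with GFP, 3.58 and 4.92 with the BCL2L11 trigger, and 1.99 and 2.28 with the TRIM9 trigger. Both TRIM9 trigger libraries lay below all 4 others, with a difference of -1.01 (SE 0.31, limma p 0.0132, adjusted p 0.9999), close to that of BTG2. SPATA18, a mitochondrial quality control factor, differed by -0.74 (SE 0.38), GADD45A, a growth arrest and DNA damage gene, by -0.60 (SE 0.31), and the sestrin SESN2 by -0.53 (SE 0.32).

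Of 12 tested apoptosis targets, 11 were below GFP with the TRIM9 trigger (55.8% of all tested genes were), with a median of -0.17 and 0 called (limma, adjusted p under 0.05, against 0.00659% of genes). FAS and TNFRSF10D were the 2 of 12 that did not overlap with GFP on the lower side, against 11.2% of genes, and with TMM factors TNFRSF10B joined them, 3 of 12 (8.42%). The death receptor gene FAS had 3.26 and 5.91 with GFP, 2.53 and 6.47 with the BCL2L11 trigger, and 1.54 and 3.04 with the TRIM9 trigger. The second TRIM9 trigger library lay just under the first GFP library, so these groups did not overlap, and the difference was -0.76 (SE 0.48, limma adjusted p 0.9999). TNFRSF10D, a decoy receptor, differed by -0.69 (SE 0.29, limma p 0.0479, adjusted p 0.9999), and its TRIM9 trigger libraries lay below both GFP libraries. TNFRSF10B, a death receptor, differed by -0.47 (SE 0.37) and TP53I3, an oxidoreductase, by -0.53 (SE 0.51).

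Of 18 regulators of p53, 13 were below GFP with the TRIM9 trigger (55.8% of all tested genes were), with a median of -0.10 and 0 called (limma, adjusted p under 0.05, against 0.00659% of genes). The damage kinase gene ATR and TP53BP1 were the 2 of 18 that did not overlap with GFP on the lower side, a share near the 11.2% of all genes, and with TMM factors these were PPM1D, CHEK1 and TP53BP1, 3 of 18 (8.42%). The highest difference in the list was that of CDKN2A, which encodes ARF, an inhibitor of MDM2, and also the protein p16. The level is summed over all its transcripts and does not separate these products. CDKN2A had 153.8 and 210.7 with GFP, 276 and 180.3 with the BCL2L11 trigger, and 335 and 191 with the TRIM9 trigger. The groups overlapped, and the TRIM9 difference of 0.49 (SE 0.42, limma adjusted p 0.9999) was made of 1.12 in set 1 and -0.14 in set 2. PPM1D, a phosphatase that switches off p53 signalling and is itself a target, had 12.1 and 20.7 with GFP, 7.98 and 16.5 with the BCL2L11 trigger, and 5.75 and 12.3 with the TRIM9 trigger. Like MDM2 it was higher in set 2 and lowest with TRIM9 within each set, with a difference of -0.83 (SE 0.50, limma adjusted p 0.9999). In the fit with a set term and without GFP replicate 2 that also called BTG2, its adjusted p was 0.0433 (limma). MDM4, an MDM2 relative that inhibits p53, had 6.27 and 6.97 with GFP, 2.95 and 5.73 with the BCL2L11 trigger, and 4.02 and 8.10 with the TRIM9 trigger. Its BCL2L11 difference was -0.56 (SE 0.42), and TP53BP1, a p53-binding repair factor, gave -0.56 (SE 0.30) in the same comparison, both with a limma adjusted p of 0.9999. Of the p53 relatives, TP73 ranged from 1.30 to 2.93 FPKM over the 6 libraries and TP63 from 0 to 0.03.

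Genes repressed when p53 acts through p21 and the DREAM complex, mostly mitotic genes, lay near GFP. With the TRIM9 trigger the 18 tested genes had a median of -0.03, against -0.04 over all tested genes. Of these 18, 11 were below and 7 above GFP, where 55.8% of all tested genes were below. They ran from -0.18 (FOXM1, SE 0.31) to 0.44 (AURKB, SE 0.40). None was called (0 of 18, limma, adjusted p under 0.05), against 0.00659% of all genes. None had an unadjusted p under 0.05 (limma), where 0.843% of all genes were lower at that threshold. With shares this low, 0 of 18 does not set these genes apart. With the BCL2L11 trigger the medians of the 4 lists were -0.14 (arrest and repair), -0.04 (apoptosis), -0.21 (regulators) and -0.12 (DREAM), against -0.08 over all genes. In each list 0 genes were called (limma, 0.00659% of all genes) and 0 had an unadjusted p under 0.05 (limma, 0.547% of all genes). Both BCL2L11 trigger libraries lay below both GFP libraries for 5 of 18 regulators, against 12.3% of genes. For the other lists the counts were 2 of 17 (arrest and repair), 2 of 12 (apoptosis) and 1 of 18 (DREAM). With TMM factors they were 5 of 18, 3 of 17, 2 of 12 and 0 of 18, against 7.11% of genes.

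**Figure D3:**
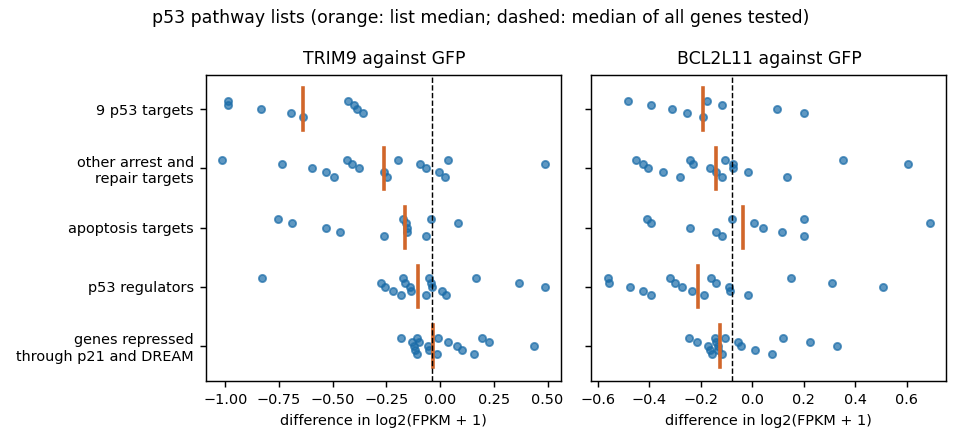
Limma difference in log2(FPKM + 1) from GFP of every tested gene (points) of 5 p53 pathway lists, with orange bars for list medians and a dashed line for the median of all tested genes. With the TRIM9 trigger the 9 members have the lowest median, -0.64, and the genes repressed through p21 and DREAM sit at -0.03.

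The genes outside these lists whose levels followed the members most closely were LTBP2 (Pearson r 0.99 with the mean standardised level of the 9 members over 6 libraries), GCM1, ZNF34 and PTAFR (0.98 each) and BAG3 (0.97), out of 12637 candidates. These r values are a description over libraries that the genes share. BAG3, a co-chaperone, had an FPKM of 64.8 and 80.8 with GFP, 57.6 and 54.5 with the BCL2L11 trigger, and 32.9 and 27.8 with the TRIM9 trigger. The other 4 were at an FPKM of 5.03 or less. Among the members, BTG2 followed the mean most closely (r 0.97) and ZMAT3 least (r 0.51). That mean includes the member itself, so these r values are not comparable with those of the genes outside the lists.

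Several miRNAs are p53 targets too and were read in the small RNA libraries, which held 5018875 to 6091151 counts on miRNAs. The 4 below are the most abundant of the p53-responsive miRNAs tested whose mature sequence was in RefSeq (GRCh38.p14), shown 5′ to 3′ with the seed, bases 2 to 8, in capitals.
miR-34a-5p: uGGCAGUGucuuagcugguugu
miR-192-5p: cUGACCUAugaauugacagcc
miR-215-5p: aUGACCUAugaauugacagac
miR-194-5p: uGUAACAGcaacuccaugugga
miR-192-5p and miR-215-5p share the seed UGACCUA, while miR-34a-5p, the best known p53-induced miRNA, and miR-194-5p each have their own. The genomic copies are at chr1:9151735-9151756 for miR-34a-5p and chr11:64891203-64891223 for miR-192-5p, both on the minus strand. miR-215-5p and a copy of miR-194-5p lie together on chromosome 1, at 220117916 to 220117936 and 220118206 to 220118227, also on the minus strand.

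Of 12 listed miRNAs 11 were in the count table and 7 passed the filter. None of the 7 was called in any of the 3 comparisons (edgeR, adjusted p under 0.05), against 0.226% of 443 tested miRNAs with BCL2L11, 0% with TRIM9 and 0.226% between the triggers. CPM here is a count scaled to the library total of tested miRNAs, after that total was multiplied by a TMM factor of 0.7775 (TRIM9 replicate 2) to 1.1661 (TRIM9 replicate 1). miR-34a-5p had 179 and 117 CPM with GFP, 237 and 115 with the BCL2L11 trigger, and 216 and 111 with the TRIM9 trigger. It was higher in set 1 of every group, the groups overlapped, and its TRIM9 difference was 0.15 in log2 (SE 0.42). Scaled to total counts without TMM factors, TRIM9 replicate 2 was the lowest library at 86.0 and the groups still overlapped.

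miR-215-5p had 116 and 115 CPM with GFP, 182 and 194 with the BCL2L11 trigger, and 119 and 169 with the TRIM9 trigger. Both BCL2L11 trigger libraries lay above all 4 others. The difference from GFP was 0.70 (SE 0.22, edgeR p 0.0117, adjusted p 0.9954), against 12.4% of miRNAs with both libraries above GFP. When library set was added to the edgeR fit its adjusted p was 0.0331, but with total counts in place of TMM the same fit gave 0.61 with an adjusted p of 0.9982 (edgeR). With total counts the BCL2L11 trigger libraries still lay above GFP (6.09% of miRNAs did), at 195 and 178 against 122 in both. Both TRIM9 trigger libraries also lay above GFP (14.4% of miRNAs), by 0.31 (SE 0.22, edgeR adjusted p 0.958), which became 0.14 with total counts. miR-192-5p, of the same seed, was at 816 to 867 CPM in all 6 libraries, and at 652 to 952.5 with total counts, lowest and highest in the TRIM9 trigger libraries. With TMM it had differences of 0.04 (SE 0.16) for BCL2L11 and 0.02 (SE 0.16) for TRIM9, and with total counts of -0.04 and -0.11. miR-194-5p, miR-34c-5p, miR-107 and miR-143-3p overlapped between each trigger and GFP. The medians of the 7 miRNAs were 0.04 with BCL2L11 and 0.00 with TRIM9.

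**Figure D4:**
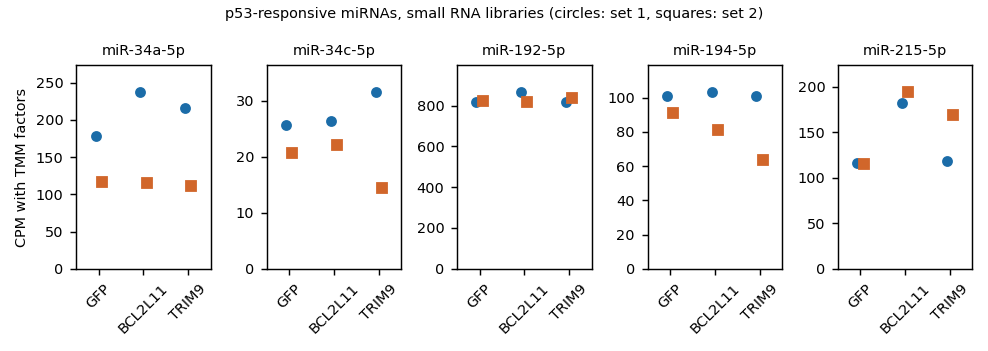
CPM with TMM factors (vertical axes, each from 0) of 5 p53-responsive miRNAs in the 6 small RNA libraries, circles for library set 1 and squares for set 2. miR-215-5p with the BCL2L11 trigger, at 182 and 194, sits above its other 4 libraries, while miR-192-5p lies between 816 and 867 throughout on this scale.

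Precision limits what these comparisons could call. With 2 libraries a group an exact permutation test cannot go below a two-sided p of 0.333. Data were simulated with the spread of the TRIM9 and GFP libraries over 15183 genes. The group-only limma fit called 0% of genes changed by 1 in log2, 18.6% of those changed by 2 and 71.1% of those changed by 4. The fit with a set term called 2.86%, 54.8% and 84.4%. Unchanged genes called numbered 2 on average in the group-only fit and 0.667 with a set term. For 443 miRNAs, simulated with a fixed spread not estimated from these libraries, edgeR called 26.7% of changes by a fold of 2 and 86.7% by a fold of 4.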

How the data were processed

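Poly-A RNA of 6 libraries and small RNA of 6 libraries were compared, in 3 groups of 2. The submitters' processing notes name hg38 and the tools StringTie 2.1.3, STAR, cutadapt 3.4 and DESeq2 1.20.0, but no annotation release. The deposited transcript tables give, per the file headers, coverage (mean read depth per base) and FPKM. The deposited miRNA table gives raw counts per mature miRNA. For part of the genes, the authors' deposited tables give a ratio (fold change), the log2 of it, and a p-value with its q-value, by a tool not given in the sources used here.

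FPKM was summed per gene identifier, and limma 3.58.1 was run on log2(FPKM + 1) of all 6 libraries with group as the only term and a mean-variance trend, for genes that reached an FPKM of 1 in 2 or more libraries, with two-sided p adjusted by Benjamini-Hochberg over all 15183 tested genes, so a fold change of a low gene is understated. miRNA counts were fitted in edgeR 4.0.16 (TMM, quasi-likelihood, group only). Where a list symbol had more than 1 locus (4 symbols), the chromosomal locus of highest level was used. Both fits were tested on simulated data. No pair of poly-A libraries held identical values (0 of 15). Alternatives were TMM-rescaled FPKM, the compared groups alone, a library set term, no trend, a pseudocount of 0.1, a minimum FPKM of 5 or none, and leaving out each library, and for miRNAs also size factors of DESeq2, its test (1.42.0) and no filter. Added after seeing the data were total miRNA counts without TMM (group only and with the set term), the assembled chromosomes only and leaving out each library with the set term.

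The members and lists were chosen with earlier results of these data known, so their direction is no independent support. Named genes are the members, TP63, TP73, MDM4, up to 4 genes of lowest p per list and comparison, the miRNAs that passed the filter, and the 5 genes of most similar pattern among those spanning at least 0.5 in log2. The alternatives for single genes outside the members were run for PPM1D and PLK2, chosen after their values were seen. A gene that the rule also named is not reported here.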

Additional observations from a re-analysis of the deposited data

How the results depend on the processing

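With the TRIM9 trigger the members were below GFP in each setting in which they were tested, which was every one run except for ZMAT3 and TP53INP1, removed by a minimum FPKM of 5. Without a library (no set term) the difference ranged from -0.78 to -0.03 for ZMAT3 (nearest 0 without GFP replicate 2), -1.14 to -0.53 for TP53INP1 (GFP replicate 2), -1.08 to -0.20 for MDM2 and -0.58 to -0.13 for SESN1 (both TRIM9 replicate 1, as was the regulator PPM1D, -1.32 to -0.34), -0.70 to -0.16 for CDKN1A, -0.63 to -0.15 for GDF15 and -1.38 to -0.60 for DDB2 (all TRIM9 replicate 2), -0.84 to -0.55 for AEN and -1.07 to -0.90 for BTG2. The number of members called in the comparisons with GFP, between triggers and with both triggers pooled was 0 throughout, except for 1 (BTG2) with the TRIM9 trigger in the fit with a set term and without GFP replicate 2. The labels state no pairing, and the deviations of sets 1 and 2 correlated between groups by 0.58, 0.49 and 0.83. The replicate block (library set term) gave 6 genes called for TRIM9 against GFP in place of 1, and 5 (BCL2L11) and 4 (between triggers) miRNAs in place of 1 each. It changed no call of a member.

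Genes called over all for TRIM9 against GFP numbered 4 with the compared groups alone and 1 to 5 without a library. Leaving out a library with the set term, which has 1 residual degree of freedom, gave 1 to 489 genes for BCL2L11, 1 to 742 for TRIM9, 2 to 62 between triggers and 1 to 1100 for both triggers pooled, each highest without GFP replicate 2 except between triggers (without BCL2L11 replicate 2). Both triggers pooled gave 0 genes without a filter and 0 to 4 without a library. Between library sets, 1265 to 8178 genes and 0 to 7 members were called without a library, 0 genes and 0 members without a filter, and 2 members with a filter of 5, which removed ZMAT3 and TP53INP1. With TMM, 0 members did not overlap on the lower side for BCL2L11.

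Without a library, in fits with or without the set term, BCL2L11 against GFP ranged from -0.20 to 0.39 for CDKN1A, -0.62 to 0.12 for MDM2, -0.24 to 0.00 for BTG2, -0.36 to 0.01 for SESN1 and -0.82 to 0.03 for ZMAT3. Between triggers the ranges were -0.05 to 0.83 for MDM2, -0.04 to 0.41 for SESN1 and -0.42 to 0.43 for ZMAT3, which was 0.00 with a pseudocount of 0.1. The cause was not tested in any of these.

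For miRNAs, 0 were called for BCL2L11 without any library, 0 to 2 between triggers without a library, 1 for TRIM9 without a filter, and between triggers 4 without a filter and 3 with DESeq2. BCL2L11 against GFP without a library ranged from -0.36 to 0.67 for miR-34a-5p, -0.07 to 0.25 for miR-34c-5p, -0.23 to 0.10 for miR-194-5p, -1.98 to 0.00 for miR-143-3p and -0.24 to 0.04 for miR-107. TRIM9 against GFP ranged from -0.44 to 0.53 for miR-34a-5p, -0.70 to 0.43 for miR-34c-5p, -0.02 to 0.02 for miR-192-5p, -0.60 to 0.06 for miR-194-5p, -0.69 to 0.24 for miR-143-3p and -0.48 to 0.12 for miR-107. miR-34c-5p was -0.01 with size factors of DESeq2, -0.02 without a filter and with DESeq2, and -0.05 with the set term, and miR-192-5p was -0.01 without a filter. Total counts without TMM gave 0 calls for BCL2L11 and between triggers, and with the set term 2 for BCL2L11, 1 for TRIM9 and 3 between triggers. On total counts without and with the set term, BCL2L11 differences were -0.01 and -0.03 for miR-34c-5p and -0.04 and -0.06 for miR-192-5p, and TRIM9 differences were -0.03 and -0.19 for miR-34c-5p and -0.11 and -0.14 for miR-192-5p, while miR-34a-5p was -0.06 for TRIM9 with the set term.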

Other observations

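With the TRIM9 trigger, 3 of the 12 tested apoptosis targets and 4 of the 17 further arrest and repair targets were above GFP in library set 1 and below it in set 2. With the BCL2L11 trigger, 6 of 12 and 5 of 17 were, so the pattern is not particular to TRIM9. Over all tested genes, 30.5% were lower and 16.1% higher in both sets with TRIM9, and 40.2% and 10.8% with BCL2L11. The remaining genes did not keep the same sign in both sets. The share of all genes above in set 1 and below in set 2 was not computed, so these counts do not set the targets apart. Both comparisons share the GFP libraries. The 5 given here were named after their values were seen. In log2(FPKM + 1) the TRIM9 differences in sets 1 and 2 were 1.40 and -1.33 for PHLDA3, an inhibitor of AKT signalling, 1.25 and -1.08 for BBC3 (PUMA), 0.44 and -0.75 for BAX, 0.72 and -0.80 for PIDD1, and 1.11 and -0.14 for FDXR. The BCL2L11 differences were 1.71 and -0.51 for PHLDA3, 1.76 and -0.38 for BBC3, 0.82 and -0.42 for BAX, 0.89 and -0.49 for PIDD1, and 1.09 and -0.39 for FDXR. BBC3, BAX and PIDD1 act in apoptosis. With the TRIM9 trigger, 7 of the 12 tested apoptosis targets were below GFP in both sets and 0 above in both. Of the 17 further arrest and repair targets 10 were below in both and 0 above in both, against 30.5% and 16.1% of all tested genes.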
